A study of Homo sapiens with 12 samples.

Results

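Integrins and the proteins that tie them to actin at focal adhesions were followed here through 39 genes. These members were chosen by name, with earlier results of these data known. They comprise 12 integrin alpha chains, 8 integrin beta chains and 19 adaptors, kinases, linkers and syndecans. They are 39 of the 20239 genes that could be named on the arrays and had a value in every group, and they are read by 48 of the 50599 probes. RNA came from HA22T and PLC5, established human hepatocellular carcinoma cell lines, transfected for 48 h with 10 nM of a non-targeting siRNA (siControl) or of a pool of siRNAs against GALNT1 (siGALNT1). GALNT1 encodes an enzyme that starts O-linked glycosylation, and the study asked how its knockdown changes gene expression in both lines. The 4 groups are HA22T siControl, HA22T siGALNT1, PLC5 siControl and PLC5 siGALNT1, with 3 arrays each. All groups share the transfection reagent and the serum-containing medium, and each line is a single culture model, so a comparison of PLC5 with HA22T is a comparison of a pair of lines and not of tumor types. The sources used here do not say whether the triplicates were separate transfections, so p-values measure the spread between these samples, which may be technical.

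Integrins are receptors made of 1 alpha and 1 beta chain that bind collagen, laminin, fibronectin or latent TGF-beta outside the cell. Inside the cell, talin and kindlin bind the beta chain tails, vinculin, zyxin and tensins link the site to actin, the ILK-PINCH-parvin complex forms a second bridge, and FAK, SRC, paxillin and p130Cas pass the signal on. In liver, the normal hepatocyte carries a small set of integrins, chiefly with the ITGB1 chain.

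Promoter sequence is shown for the 4 members that differed between the lines and have a single transcript start in the RefSeq table (GRCh38.p14), and for ITGA2, which lies next to ITGA1 on chromosome 5. The promoter starts of ITGA1 and ITGA2 are 201 kb apart on the same strand. Each run is the 250 bases before the transcript start, read 5′ to 3′ on the strand of the gene. Capitals mark matches, on either strand, to the GC box GGGCGG, the AP-1 site TGANTCA, the TEAD site CATTCC or the CArG box.
ITGA1, chr5:52787666-52787915, plus strand: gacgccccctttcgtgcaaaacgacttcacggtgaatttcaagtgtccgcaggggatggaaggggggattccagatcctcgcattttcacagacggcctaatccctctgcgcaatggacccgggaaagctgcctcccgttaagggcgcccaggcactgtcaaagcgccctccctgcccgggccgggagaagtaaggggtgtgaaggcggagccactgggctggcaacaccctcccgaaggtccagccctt
ITGA2, chr5:52989102-52989351, plus strand: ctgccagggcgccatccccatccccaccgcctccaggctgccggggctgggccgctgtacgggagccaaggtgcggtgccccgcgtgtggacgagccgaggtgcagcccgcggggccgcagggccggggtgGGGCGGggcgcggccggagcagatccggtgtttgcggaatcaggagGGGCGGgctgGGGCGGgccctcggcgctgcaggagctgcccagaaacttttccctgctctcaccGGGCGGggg
ITGA5, chr12:54419267-54419516, minus strand: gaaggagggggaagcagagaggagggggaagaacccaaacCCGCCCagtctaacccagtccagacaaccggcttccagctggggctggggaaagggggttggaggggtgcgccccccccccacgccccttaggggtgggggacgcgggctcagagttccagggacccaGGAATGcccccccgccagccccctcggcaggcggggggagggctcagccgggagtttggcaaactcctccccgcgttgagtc
ITGB8, chr7:20330650-20330899, plus strand: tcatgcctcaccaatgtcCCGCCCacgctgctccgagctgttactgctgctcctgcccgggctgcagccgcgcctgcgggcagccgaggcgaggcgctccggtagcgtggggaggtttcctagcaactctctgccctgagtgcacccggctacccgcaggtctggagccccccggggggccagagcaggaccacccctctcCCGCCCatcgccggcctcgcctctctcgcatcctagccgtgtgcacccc
VCL, chr10:73997866-73998115, plus strand: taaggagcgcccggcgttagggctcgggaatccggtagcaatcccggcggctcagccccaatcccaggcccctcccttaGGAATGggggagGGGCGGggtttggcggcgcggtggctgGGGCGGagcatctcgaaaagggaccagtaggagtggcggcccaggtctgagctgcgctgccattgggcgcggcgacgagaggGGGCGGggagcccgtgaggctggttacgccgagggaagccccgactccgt
Of these letters, the ITGA1 window held no match, whereas the ITGA2 window held 4 GC boxes, the nearest starting 9 bases before the transcript. The VCL window held 3 GC boxes and 1 TEAD match, the latter starting 171 bases upstream. In the ITGA5 window, 1 GC box started 210 bases upstream and 1 TEAD match 82 bases upstream. The ITGB8 window held 2 GC boxes. RefSeq gives 50 promoters for 28 of the 39 members, and among all 35116 promoters of the table the same window held a GC box in 42.6%, an AP-1 site in 6.57%, a TEAD site in 11.9% and a CArG box in 1.16%. The member promoters with a match numbered 29, 2, 7 and 2 of 50 in that order. These matches describe letters only.

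Values below are log2 of the processed signal minus the 75th percentile of the array, so that 0 is the brightness of that percentile spot, and a difference of 1 is a 2-fold change. Where several probes matched a gene the brightest was taken, and levels of different genes are not compared. Of the 58717 spots on each array, 36679 to 48873 were well above background and none was saturated. GALNT1 was lower after siGALNT1 in HA22T, at 1.32, 0.75 and 0.85 with siControl against -3.15, -3.68 and -5.55, a difference of -5.10 ± 0.61 (34.3-fold, SE from limma, adjusted p = 0.0708). In PLC5, GALNT1 went from 0.87, 0.37 and 0.61 to -1.93, -3.47 and -3.92, a difference of -3.72 ± 0.61 (13.2-fold, adjusted p = 1.0). Neither passed the adjusted threshold, and both were past 1.5-fold with an unadjusted p below 0.05. In HA22T GALNT1 did pass with the replicate number as a block (adjusted p = 0.037), with normexp (-4.26, 0.000179), with trend (0.00172) and with the mean over probes (0.0106), and in PLC5 with normexp (-3.38, 0.00952).

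Markers of hepatocytes and of mesenchymal cells differed in part between the lines. All 13 hepatocyte markers were well above background on every PLC5 siControl array, against 8 of 13 in HA22T siControl, where the probe of APOB averaged -5.03 against 4.52 in PLC5. VIM, an intermediate filament of mesenchymal cells, averaged 5.92 in HA22T siControl and 0.38 in PLC5 siControl, and SPARC was well above background on all 3 HA22T arrays and on none of the PLC5 arrays with siControl. FN1, fibronectin, on the same mesenchymal list, went the other way, averaging 0.52 in HA22T siControl and 4.11 in PLC5 siControl (adjusted p = 2.15e-06), and it was 4.30 higher in PLC5 with siGALNT1. Summed over each list, the log2 signal of the hepatocyte markers ran from 7.06 to 7.80 in HA22T siControl, from 7.10 to 7.24 in HA22T siGALNT1, from 7.58 to 8.46 in PLC5 siControl and from 7.60 to 8.47 in PLC5 siGALNT1. That of the 6 mesenchymal markers with a value ran from 5.82 to 6.67, 6.02 to 6.51, 4.30 to 4.88 and 4.73 to 5.07 in the same order. All 5 leukocyte probes read were well above background on every array, although the 4 probes of PTPRC, the common leukocyte antigen, averaged between 5.14 and -7.36, and ITGB2, the beta chain of leukocyte integrins, was above background on 0 of 12 arrays. The leukocyte sums ran from 4.65 to 5.53, 5.38 to 6.05, 4.91 to 5.56 and 4.48 to 5.27. Those of the 4 endothelial markers ran from -1.07 to -0.58, -1.27 to -0.55, 2.19 to 2.56 and 2.02 to 2.56, with PECAM1 averaging -3.16 in HA22T siControl and 2.25 in PLC5 siControl. The part of these markers in the differences between the lines was not tested.

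Of the 39 members, 28 were well above background on all 12 arrays and 34 could be tested in every comparison, for which 3 or more of the 6 arrays compared had to show the probe well above background. ITGB2 on 0 arrays and ITGA8 on 1 array were too dim for any test. A member that passed only through the line in which it is bright had to differ, which applies to ITGB8 with siControl and to ITGB3 with siGALNT1. In bulk RNA, fewer cells with a transcript and less transcript per cell cannot be told apart.

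With siControl, 17 of the 37 members tested differed between the lines (limma, adjusted p below 0.05), where 26.6% of all genes tested did. Of these, 4 were higher in PLC5, against 12.4% of all genes, and 13 were lower, against 14.2%. The members were chosen with earlier results of these data known, so the shares set beside them are no test of an excess. The members' median difference, PLC5 minus HA22T, was -0.34, and that of all genes was -0.10. Without ITGB8, which met the filter through HA22T alone, the count was 16 of 36, beside 25.1% of all genes not so chosen. With siGALNT1, 13 of 36 members differed, again beside 26.6% of all genes. The split was 3 higher, beside 15.0% of all genes, and 10 lower, beside 11.6%, with a median of -0.40 for the members and -0.07 for all genes. The lean of all genes turned with the scaling, to 11.9% higher and 17.0% lower with scaling over kept spots, where 3 members were higher and 13 lower, and to 14.1% and 16.3% with quantile normalization, where the members split 3 and 10. Without ITGB3, which met the siGALNT1 filter through HA22T alone, 12 of 35 members differed, beside 25.3% of all genes not so chosen. All 13 members that passed with siGALNT1 also passed with siControl, in the same direction, and the share of all genes for which this held is not given. The differences come from different arrays, but the spread was estimated from all 12 arrays together, so these are not separate tests. The groups did not overlap for 21 of 37 members with siControl and for 22 of 36 with siGALNT1, beside 47.4% and 45.8% of all genes. Slide and line overlap in part: the 6 HA22T arrays and the first PLC5 array of each arm lay on 1 slide, and the other PLC5 arrays on another. Within the first slide, all 16 called members with a value and all 13 kept their direction, with siControl and siGALNT1. That value sets 1 PLC5 array against the HA22T arrays, all of which went into the calls. The direction was thus likely to be kept, so this is no test of a slide effect, and no share of all genes is given. With slide as a block, 14 and 13 members passed, beside 21.1% and 23.1% of all genes, and with siGALNT1 PTK2 and TGFB1I1 were lost while TNS1 and ILK were gained.

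**Figure D1:**
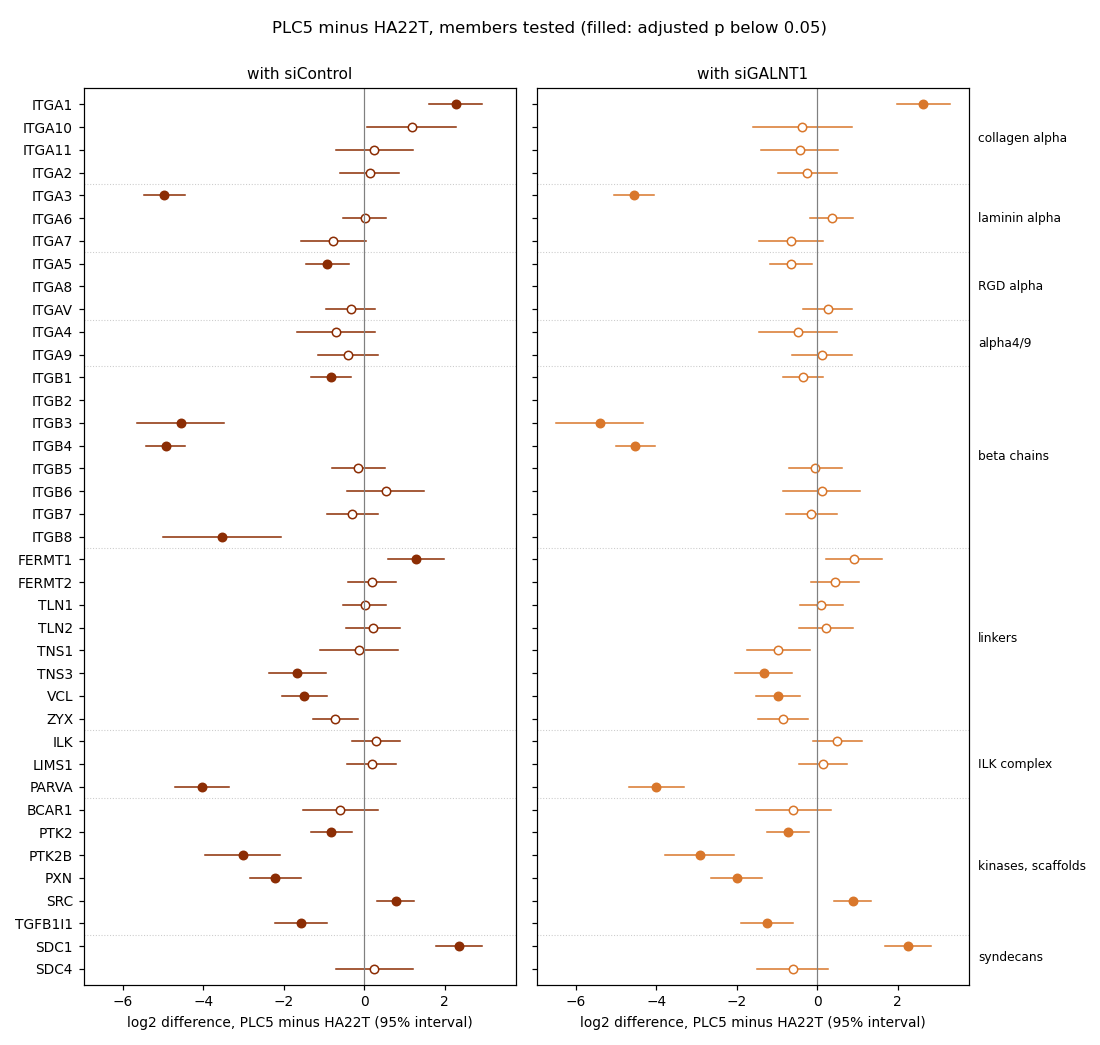
The horizontal axis is the log2 difference PLC5 minus HA22T with its 95% interval from limma, for members tested, with siControl (left) and siGALNT1 (right). Filled points have an adjusted p below 0.05. ITGA3, ITGB4 and ITGB3 lie farthest to the left, below -4.5 in both panels, and ITGA1 and SDC1 lie farthest to the right.

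Among the receptors for laminin, ITGA3, whose product pairs with the ITGB1 chain and binds laminin in basement membranes, was much lower in PLC5. HA22T arrays read 5.53, 5.06 and 5.40 with siControl and 4.89, 4.96 and 5.09 with siGALNT1. PLC5 arrays read 0.40, 0.35 and 0.36 with siControl and 0.68, 0.44 and 0.18 with siGALNT1. Every HA22T array lay above every PLC5 array, a difference of -4.96 ± 0.23 (31.1-fold, adjusted p = 1.46e-07) with siControl and -4.55 ± 0.23 (23.4-fold, adjusted p = 2.68e-07) with siGALNT1.

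ITGB4, which pairs with the ITGA6 chain in the laminin receptor of hemidesmosomes, followed the same direction. On HA22T arrays it read 2.17, 1.64 and 2.03 with siControl and 1.58, 1.47 and 1.58 with siGALNT1. On PLC5 arrays it read -3.04, -2.87 and -3.02 with siControl and -3.04, -2.88 and -3.0 with siGALNT1. The lines stood apart by -4.93 ± 0.22 (30.4-fold, adjusted p = 1.11e-07) and -4.52 ± 0.22 (22.9-fold, adjusted p = 2.05e-07). ITGA6, its partner, did not pass, at 0.01 (95% interval -0.52 to 0.55) and 0.36 (-0.18 to 0.90), and its second probe gave 0.02 and 0.36. ITGA7, the muscle laminin receptor chain, did not pass either, at -0.77 and -0.65.

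Of the 4 collagen receptor alpha chains, 1 differed in both comparisons, beside 26.6% of all genes. ITGA1, the alpha chain of a receptor for basement membrane collagen, read -1.12, -0.93 and -0.82 in HA22T siControl and -1.73, -1.02 and -0.76 in HA22T siGALNT1. It read 1.43, 1.30 and 1.20 in PLC5 siControl and 1.48, 1.84 and 1.05 in PLC5 siGALNT1. All 6 PLC5 arrays were above all 6 HA22T arrays, by 2.27 ± 0.30 (4.81-fold, adjusted p = 0.000222) and 2.63 ± 0.30 (6.20-fold, adjusted p = 8.03e-05). ITGA2, next to it in the genome and a receptor chain for fibrillar collagen, differed by 0.13 (95% interval -0.60 to 0.86) and -0.24 (-0.97 to 0.49), and its groups overlapped. ITGA11 did not pass in either comparison, at 0.25 and -0.43, and neither did ITGA10, at 1.18 with siControl (95% interval 0.08 to 2.27, adjusted p = 0.124, groups apart) and -0.37 with siGALNT1.

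Among the alpha chains of receptors for the RGD sequence of fibronectin and vitronectin, 1 of 2 tested differed with siControl and 0 of 2 with siGALNT1, beside 26.6% of all genes. ITGA5, which with the ITGB1 chain forms the main fibronectin receptor, read 4.01, 3.99 and 3.88 in HA22T siControl and 3.77, 4.24 and 3.88 in HA22T siGALNT1. PLC5 arrays read 3.00, 3.21 and 2.95 with siControl and 3.11, 3.66 and 3.16 with siGALNT1. The lines did not overlap, and the difference of -0.91 ± 0.24 passed with siControl (1.88-fold, adjusted p = 0.0183) while that of -0.65 ± 0.24 with siGALNT1 did not (adjusted p = 0.0754). With siGALNT1 it passed with trend (adjusted p = 0.0393), the replicate block (0.0457), the mean over probes (0.0448), scaling over kept spots (-0.88, 0.0258) and without PLC5 siGALNT1 replicate 2 (-0.82, adjusted p = 0.0487). The siControl call was lost without any of HA22T siControl replicates 1 and 2 and PLC5 siControl replicates 1 and 3, with differences of -0.89, -0.90, -0.89 and -0.86. ITGAV, the alpha chain shared by the vitronectin receptors, did not pass, at -0.34 (95% interval -0.94 to 0.27) and 0.25 (-0.35 to 0.86). ITGA4 and ITGA9, chains of leukocyte and epithelial receptors, did not pass on the probes read.

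ITGB3, a beta chain that pairs with ITGAV, read -1.46, -1.46 and -1.28 in HA22T siControl and -1.74, -1.62 and -1.44 in HA22T siGALNT1. In PLC5 it read -6.68, -4.85 and -6.35 with siControl, well above background on 1 of 3 arrays, and -6.61, -6.41 and -7.97 with siGALNT1, on 0 of 3. With siControl the difference was -4.56 ± 0.49 (adjusted p = 4.88e-05), a size that rests on PLC5 values mostly not well above background. With siGALNT1 the probe was not well above background in PLC5, so ITGB3 was at least 16.3-fold higher in HA22T, with a fitted adjusted p of 1.49e-05. Without any 1 HA22T siGALNT1 array too few arrays were above background for that test, and the difference was -5.47, -5.41 or -5.32. For such bounds the dim group was set, array by array, to the higher of its own value and the lowest signal among probes well above background.

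ITGB8, the beta chain of a receptor that activates latent TGF-beta, was dim in both lines. It read -4.90, -3.96 and -3.87 in HA22T siControl, all well above background, and -6.08, -6.11 and -4.01 in HA22T siGALNT1, with 1 array above background. PLC5 arrays read -6.84, -7.55 and -8.92 and then -6.81, -8.22 and -7.08, none of them well above background. With siControl ITGB8 was at least 2.53-fold higher in HA22T (adjusted p = 0.0027), a call that rests on those 3 HA22T arrays: without any of them too few arrays were above background for a test, and the difference was then -3.85, -3.39 or -3.34. With siGALNT1 it was too dim for a test.

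ITGB1, the beta chain shared by most collagen, laminin and fibronectin receptors, read 5.75, 5.30 and 5.54 in HA22T siControl and 5.22, 5.31 and 5.33 in HA22T siGALNT1. PLC5 arrays read 4.73, 4.65 and 4.71 with siControl and 4.97, 5.18 and 4.68 with siGALNT1. No PLC5 array reached an HA22T array of the same siRNA, and the difference was -0.83 ± 0.23 with siControl (1.78-fold, adjusted p = 0.0214) and -0.35 ± 0.23 with siGALNT1 (adjusted p = 0.301). The siControl call did not survive quantile normalization (-0.56, adjusted p = 0.119), the slide block (-0.80, adjusted p = 0.074), a fit of those 2 groups alone (adjusted p = 0.0561) or the loss of any of HA22T siControl replicates 1 and 3 and the 3 PLC5 siControl arrays, with differences between -0.85 and -0.72. ITGB5, ITGB6 and ITGB7 did not pass in either comparison, with ITGB5 at -0.15 (95% interval -0.80 to 0.51) and -0.05 (-0.71 to 0.61).

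**Figure D2:**
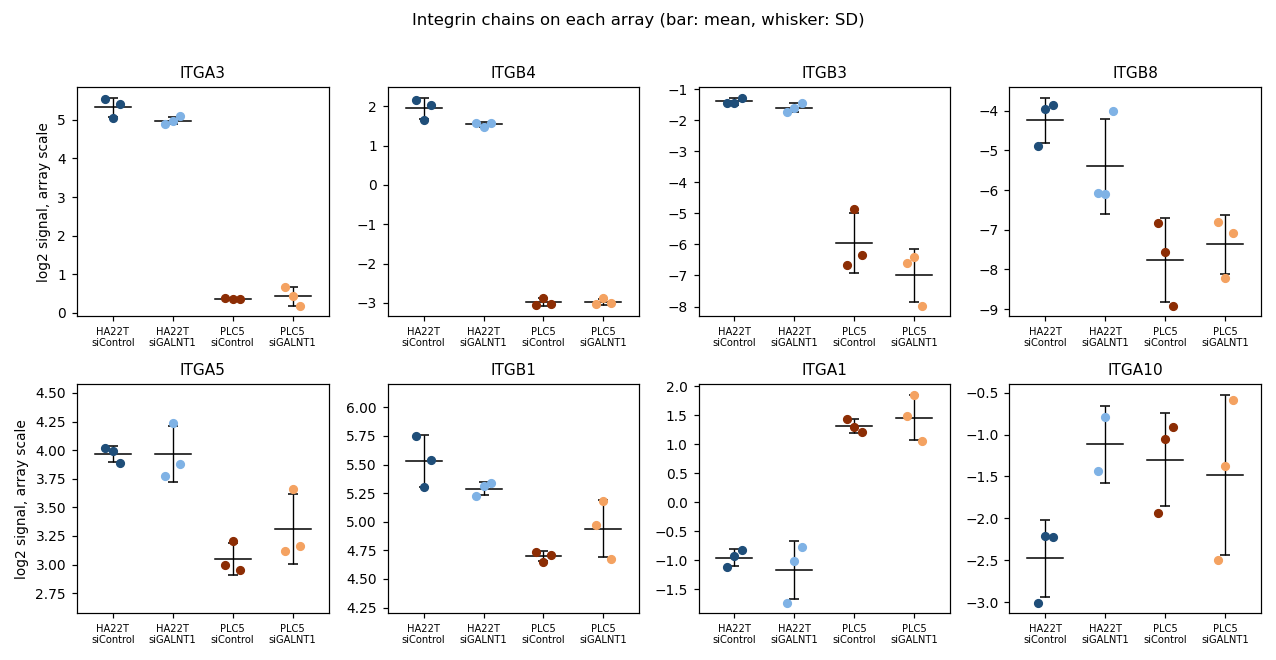
Each panel plots 1 gene, with the log2 signal relative to the 75th percentile of the array on the vertical axis and the 4 groups on the horizontal axis. Points are arrays, horizontal bars are group means and whiskers are SD. Vertical scales differ between panels. ITGA3, ITGB4 and ITGB3 separate by line by more than 3 log2 units, ITGA1 separates in the opposite direction, and ITGA10 has no value on 1 HA22T siGALNT1 array.

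Of the linkers between integrin tails and actin, 3 of 8 differed with siControl and 2 of 8 with siGALNT1, beside 26.6% of all genes. VCL, vinculin, which reinforces the talin-actin link under tension, read 1.35, 0.71 and 0.88 in HA22T siControl and 0.84, 0.55 and 0.76 in HA22T siGALNT1. PLC5 arrays read -0.72, -0.44 and -0.38 with siControl and -0.33, 0.01 and -0.46 with siGALNT1. The lines did not overlap, with differences of -1.49 ± 0.25 (2.82-fold, adjusted p = 0.00127) and -0.98 ± 0.25 (1.97-fold, adjusted p = 0.0168). The latter call was lost without HA22T siGALNT1 replicate 3 (-0.95, adjusted p = 0.0509), without PLC5 siGALNT1 replicate 1 (-0.94, adjusted p = 0.0542) and in a fit of those 2 groups alone (adjusted p = 0.0681).

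TNS3, a tensin, read -1.34, -2.17 and -1.75 in HA22T siControl and -1.82, -2.55 and -2.20 in HA22T siGALNT1. In PLC5 it read -3.75, -3.24 and -3.26 with siControl and -3.63, -3.06 and -3.87 with siGALNT1. All PLC5 arrays were lower, by -1.66 ± 0.32 (3.16-fold, adjusted p = 0.00319) and -1.33 ± 0.32 (2.52-fold, adjusted p = 0.0118), the latter not called by the methods' t-test (adjusted p = 0.0829).

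FERMT1, kindlin-1 of epithelial cells, was read at -1.16, -1.90 and -2.19 in HA22T siControl and -1.63, -0.83 and -1.70 in HA22T siGALNT1. PLC5 arrays lay close together, at -0.44, -0.49 and -0.50 with siControl and -0.50, -0.47 and -0.44 with siGALNT1. The difference of 1.28 ± 0.32 passed with siControl (2.42-fold, adjusted p = 0.0128) and that of 0.92 ± 0.32 did not with siGALNT1 (adjusted p = 0.0579). Its second probe did not show this, at -0.49 and -0.42, and the mean of both probes gave 0.40 (adjusted p = 0.349) with siControl, which the methods' t-test did not call either (adjusted p = 0.0697). Without HA22T siControl replicate 3 the siControl difference was 1.06 (adjusted p = 0.0595), whereas without HA22T siGALNT1 replicate 2 or HA22T siControl replicate 1 the siGALNT1 difference passed, at 1.2 (adjusted p = 0.026) and 0.92 (adjusted p = 0.0348), as it did with trend (adjusted p = 0.0319).

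The talins TLN1 and TLN2, which open integrins from inside, did not pass, with TLN1 at 0.01 (95% interval -0.52 to 0.53) and 0.10 (-0.42 to 0.63). FERMT2, kindlin-2, did not pass on either of its probes. ZYX, zyxin, came close to the threshold in both comparisons, at -0.72 (adjusted p = 0.0664) and -0.86 (adjusted p = 0.0503), with no overlap between the lines.

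TNS1 depended on the probe. The brightest probe read 3.64 and 3.50 on the 2 HA22T siControl arrays with a value and 3.35 and 3.54 on the 2 PLC5 siControl arrays with a value, a difference of -0.13 (adjusted p = 0.873). With siGALNT1 it read 3.87, 3.76 and 3.85 in HA22T and 2.20, 2.77 and 3.62 in PLC5, a difference of -0.96 (adjusted p = 0.0786) that passed without PLC5 siGALNT1 replicate 3 (-1.34, adjusted p = 0.0114), with slide as a block (-1.40, 0.0334), normexp (-1.15, 0.0161), trend (0.0304) and scaling over kept spots (-1.19, 0.0422). With the mean over its probes TNS1 was instead higher in PLC5, by 2.39 (adjusted p = 0.0382) with siControl and 2.11 (adjusted p = 0.0609) with siGALNT1. The other probes, at or near background in HA22T, were higher in PLC5 by 2.24 and 4.11 with siControl (adjusted p = 0.000297 and 1.77e-05) and by 2.82 and 4.48 with siGALNT1 (adjusted p = 5.9e-05 and 1.04e-05). All 3 probes carry the same RefSeq transcript, so the direction for TNS1 cannot be given from these arrays.

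**Figure D3:**
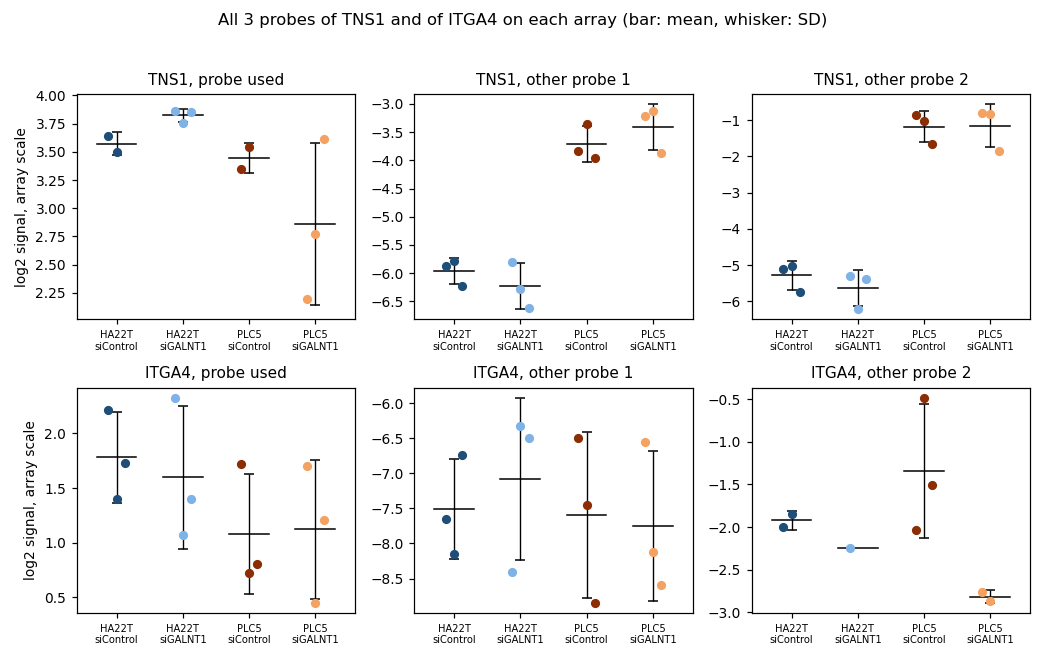
All 3 probes of TNS1 (top) and of ITGA4 (bottom), plotted as log2 signal relative to the 75th percentile of the array against the 4 groups. Points are arrays, bars are means and whiskers are SD. Vertical scales differ between panels. The TNS1 probe used shows the lines at similar values with siControl, whereas its other probes are higher in PLC5, and the first other probe of ITGA4 averages -7.49.

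For ITGA4, an alpha chain of leukocyte integrins, the probe read was above background on all 12 arrays, another was above background on 0 arrays, and the third had a value on 8 arrays. None of the 3 differed between the lines with an adjusted p below 0.05.

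Within the complex of ILK, PINCH-1 and parvin, 1 of 3 genes differed in each comparison, beside 26.6% of all genes. PARVA, alpha-parvin, which joins ILK to actin, read 0.34, -0.23 and -0.46 in HA22T siControl and -0.35, -0.63 and -0.67 in HA22T siGALNT1. PLC5 arrays read -3.88, -4.64 and -3.92 with siControl and -4.27, -4.91 and -4.46 with siGALNT1, still well above background. The lines were apart by -4.03 ± 0.31 (16.3-fold, adjusted p = 3.89e-06) and -4.0 ± 0.31 (16.0-fold, adjusted p = 4.79e-06). ILK itself differed by 0.29 (95% interval -0.31 to 0.90) and 0.50 (-0.10 to 1.1) and LIMS1, which encodes PINCH-1, by 0.18 and 0.15, and neither passed. With slide as a block ILK passed with siGALNT1 (0.88, adjusted p = 0.0452).

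Kinases and scaffolds differed in 5 of 6 cases in both comparisons, 4 lower and 1 higher in PLC5, beside 26.6% of all genes. With slide as a block the calls of PTK2 in both comparisons, SRC with siControl and TGFB1I1 with siGALNT1 were lost. PXN, paxillin, the scaffold on which kinases assemble, read 3.06, 2.49 and 2.11 in HA22T siControl and 2.79, 2.23 and 2.37 in HA22T siGALNT1. PLC5 arrays read 0.10, 0.43 and 0.52 with siControl and 0.41, 0.64 and 0.36 with siGALNT1. The lines did not overlap, with differences of -2.20 ± 0.29 (4.61-fold, adjusted p = 0.000204) and -1.99 ± 0.29 (3.99-fold, adjusted p = 0.000436), and the second PXN probe gave -1.94 and -1.82.

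TGFB1I1, or Hic-5, the paxillin relative found in contractile cells, read 0.30, -0.20 and 0.27 in HA22T siControl and 0.04, -0.35 and -0.47 in HA22T siGALNT1. In PLC5 it read -1.25, -1.62 and -1.47 with siControl and -1.0, -1.95 and -1.56 with siGALNT1. All PLC5 arrays were lower, by -1.57 ± 0.29 (2.96-fold, adjusted p = 0.00253) and -1.25 ± 0.29 (2.37-fold, adjusted p = 0.0103). Within the shared slide the siGALNT1 difference was -0.74, and with slide as a block it did not pass (-0.90, adjusted p = 0.0704), nor with 2 groups alone (adjusted p = 0.0572) or in the methods' t-test (adjusted p = 0.0915).

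PTK2B, or Pyk2, a calcium-responsive relative of FAK, had no value on 3 arrays because its spots were flagged there, and the fit dropped them. The remaining values were -1.96 and -1.55 in HA22T siControl, -1.86 and -1.37 in HA22T siGALNT1, and -5.09 and -4.46 in PLC5 siControl. In PLC5 siGALNT1 it read -4.45, -4.19 and -4.98. The lines did not overlap, at -3.02 ± 0.41 (8.11-fold, adjusted p = 0.00096) and -2.92 ± 0.37 (7.58-fold, adjusted p = 0.00072), the first from 2 arrays per group and the second from 2 against 3. The methods' t-test did not call the siControl difference (adjusted p = 0.0736), and neither was tested when every array had to be well above background.

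PTK2, which encodes FAK, the central kinase of focal adhesions, read 2.15, 2.32 and 2.23 in HA22T siControl and 2.25, 2.47 and 2.39 in HA22T siGALNT1. PLC5 arrays read 1.60, 1.32 and 1.33 with siControl and 1.68, 1.94 and 1.30 with siGALNT1. The lines were apart by -0.82 ± 0.23 (1.76-fold, adjusted p = 0.0268) and -0.73 ± 0.23 (1.65-fold, adjusted p = 0.0451), and with slide as a block neither passed (adjusted p = 0.118 and 0.15), nor in fits of 2 groups alone (0.0533 and 0.162). The siGALNT1 call was also lost with median scaling (adjusted p = 0.066), with no filter on dim probes (0.0557) and in the methods' t-test (0.102). Without 1 array, the siControl call held only without PLC5 siControl replicate 1 or an siGALNT1 array, with differences from -0.86 to -0.77 where it was lost, to HA22T siControl replicates 1, 2 and 3 or PLC5 siControl replicates 2 and 3. The siGALNT1 call was lost without any single array except PLC5 siGALNT1 replicate 2, with values from -0.79 to -0.56.

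SRC, the tyrosine kinase that acts with FAK, was higher in PLC5. It read -2.32, -2.69 and -2.53 in HA22T siControl and -2.50, -2.65 and -2.70 in HA22T siGALNT1. PLC5 arrays read -1.70, -1.81 and -1.70 with siControl and -1.77, -1.60 and -1.83 with siGALNT1. Every PLC5 array was above every HA22T array, by 0.78 ± 0.21 (1.71-fold, adjusted p = 0.0213) and 0.88 ± 0.21 (1.84-fold, adjusted p = 0.0112). The siControl call was lost with slide as a block (adjusted p = 0.0621), median scaling (0.0618), normexp (0.0512) and 2 groups alone (0.0652), and without HA22T siControl replicate 2 or 3 or any of the 3 PLC5 siControl arrays, with values from 0.69 to 0.82. The siGALNT1 call was lost with normexp (0.63, adjusted p = 0.0533) and 2 groups alone (adjusted p = 0.0771). BCAR1, p130Cas, a substrate of SRC, did not pass, at -0.60 in both comparisons.

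Syndecans are heparan sulfate proteoglycans that bind matrix beside integrins. SDC1, the epithelial syndecan, read 1.06, 0.95 and 0.75 in HA22T siControl and 0.46, 1.06 and 0.60 in HA22T siGALNT1. PLC5 arrays read 3.54, 3.04 and 3.22 with siControl and 3.22, 3.02 and 2.67 with siGALNT1. PLC5 was higher without overlap, by 2.35 ± 0.26 (5.08-fold, adjusted p = 6.38e-05) and 2.26 ± 0.26 (4.79-fold, adjusted p = 8.95e-05). SDC4, the syndecan of focal adhesions, had a value on 9 arrays and did not pass, at 0.25 and -0.61.

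**Figure D4:**
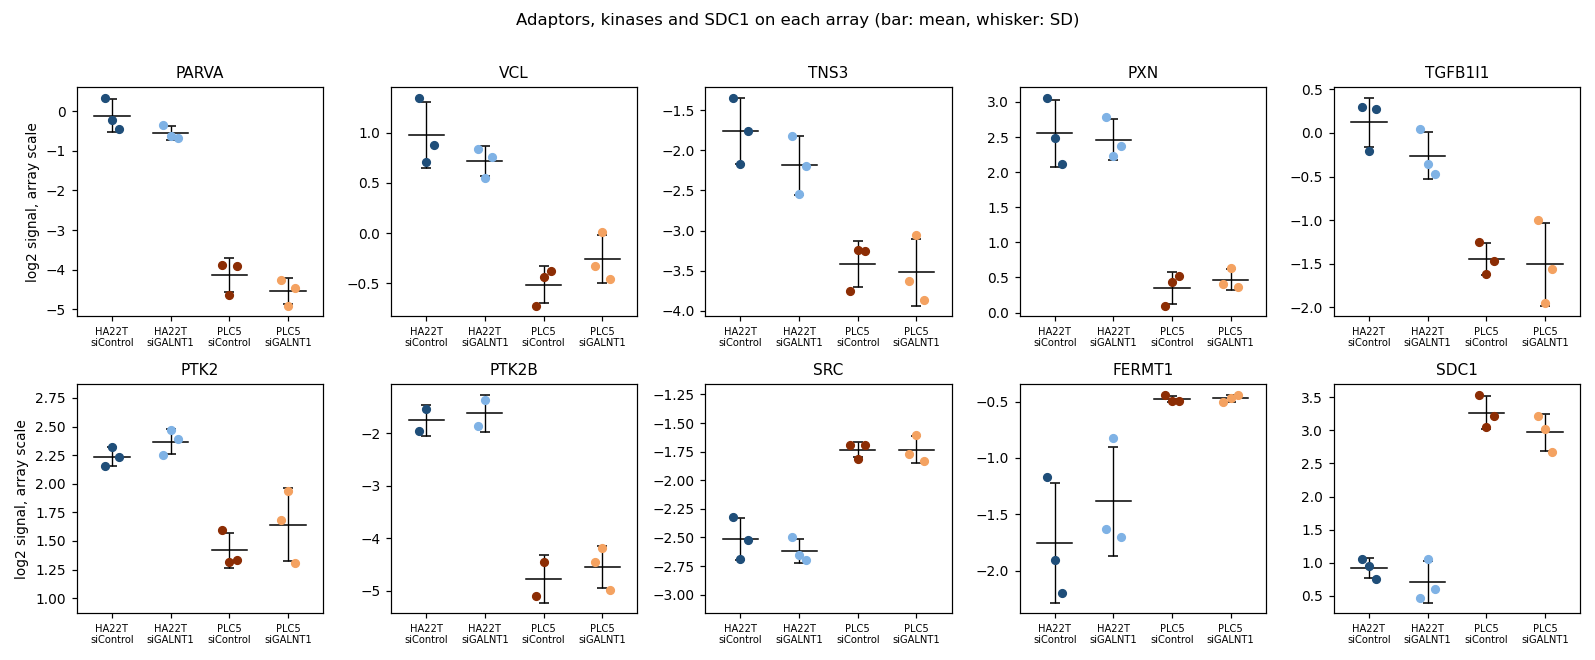
Each panel plots 1 gene, with the log2 signal relative to the 75th percentile of the array on the vertical axis and the 4 groups on the horizontal axis. Points are arrays, bars are means and whiskers are SD. Vertical scales differ between panels. PARVA and PTK2B are lower in PLC5 by more than 2.9 log2 units, SRC, FERMT1 and SDC1 lie higher in PLC5, and PTK2B lacks a value on 3 arrays.

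After siGALNT1, none of these genes passed the adjusted threshold in either line. GALNT1 itself, 34.3-fold lower in HA22T and 13.2-fold lower in PLC5, did not pass it in the main fit either. The absence of calls therefore does not show an absence of effect. In HA22T, 0 of 36 members tested passed, as did 0 of all 16967 genes tested (0%), and 1 member and 448 genes had an unadjusted limma p below 0.05. That member, ITGA10, a collagen receptor chain of cartilage, met the criterion of the study, at least 1.5-fold and p below 0.05, taken here as an unadjusted p and met by 2.52% of all genes. ITGA10 read -3.01, -2.21 and -2.22 with siControl and -1.44 and -0.79 on the 2 siGALNT1 arrays with a value, a difference of 1.36 ± 0.55 (2.57-fold, adjusted p = 1.0). It was not tested when every array had to be well above background, and no longer met the criterion without HA22T siControl replicate 1 (1.1) or without HA22T siGALNT1 replicate 3 (1.04). In PLC5 it gave -0.18 (95% interval -1.28 to 0.91), which turned to 0.01 without PLC5 siControl replicate 3 and to 0.32 without PLC5 siGALNT1 replicate 1.

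The other members in HA22T ran from -1.16 for ITGB8 (95% interval -2.63 to 0.31) to 0.70 for SDC4 (-0.26 to 1.67). ITGB8 was well above background on 1 of 3 HA22T siGALNT1 arrays, and SDC4 had a value on 2 arrays of each HA22T group. Across the 36 tested, 27 were lower and 9 higher after siGALNT1, with a median of -0.16 beside a median of -0.10 for all genes, of which 10777 were lower and 6190 higher. That median of all genes moved with the processing, to 0.02 with scaling over kept spots and -0.03 with quantile normalization. It was -0.03 with normexp and -0.16 with median scaling. The counts of lower and higher genes, also those by pair, hold for the main scaling only. Taken by replicate number, 10 of the 31 members with 3 pairs were lower in all 3 and 3 were higher, beside 25.6% and 9.54% of all genes. Of the 10 lower members, TNS3 differed by -0.47, -0.37 and -0.44 in the pairs, and ITGAV by -0.56, -0.47 and -0.19. PARVA differed by -0.69, -0.40 and -0.21 and ITGA3 by -0.63, -0.10 and -0.31. The 3 higher members were ITGA2 (0.31, 0.43 and 0.06), ITGA7 (0.28, 0.06 and 0.10) and PTK2 (0.09, 0.14 and 0.16). With the replicate number as a block shared by both lines, 0 members passed. The groups did not overlap for 5 members, namely ITGA10, ITGAV, ITGB4, TNS1 and SDC4, where 11.9% of all genes did not. Fewer values make this easier to meet: SDC4 had 2 in each group, ITGA10 had 2 with siGALNT1 and TNS1 had 2 with siControl. The TNS1 probe read gave 0.25, and its other probes gave -0.27 and -0.35. Of the large differences between the lines, ITGA3 gave -0.35 (95% interval -0.85 to 0.16) and ITGB4 -0.40 (-0.89 to 0.08) after siGALNT1 in HA22T.

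In PLC5, 0 of 35 members tested passed and 0 had an unadjusted limma p below 0.05, beside 0 of all 17316 genes that passed (0%) and 138 with such a p. None met the 1.5-fold criterion, which 0.762% of all genes met. Differences ran from -0.59 for TNS1 (95% interval -1.47 to 0.30) to 0.26 for ITGA5 (-0.27 to 0.79), with a median of 0.00 beside 0.04 for all genes, and 18 members were higher and 17 lower. No member had groups that stood apart, where 4.68% of all genes did. ITGB1 gave -0.24 (95% interval -0.74 to 0.26) in HA22T and 0.24 (-0.25 to 0.74) in PLC5. The 95% interval reached a change of 1.5-fold in 1 direction or both for 33 of 36 members in HA22T and for 32 of 35 in PLC5. A test of the difference between the lines in the effect of siGALNT1 found 0 of 37 members and 0 of 17893 genes (0%). In it, 0 members and 336 genes had an unadjusted limma p below 0.05, and estimates ran from -1.54 for ITGA10 to 1.56 for ITGB8. ITGA10 had a value on 2 HA22T siGALNT1 arrays. ITGB8 was well above background on 0 of 3 PLC5 arrays in each arm, so its estimate rests on dim signal. The third ITGA4 probe, which had no value on 1 PLC5 siGALNT1 array, gave -1.47 in PLC5 (adjusted p = 1.0, with an unadjusted p below 0.05).

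**Figure D5:**
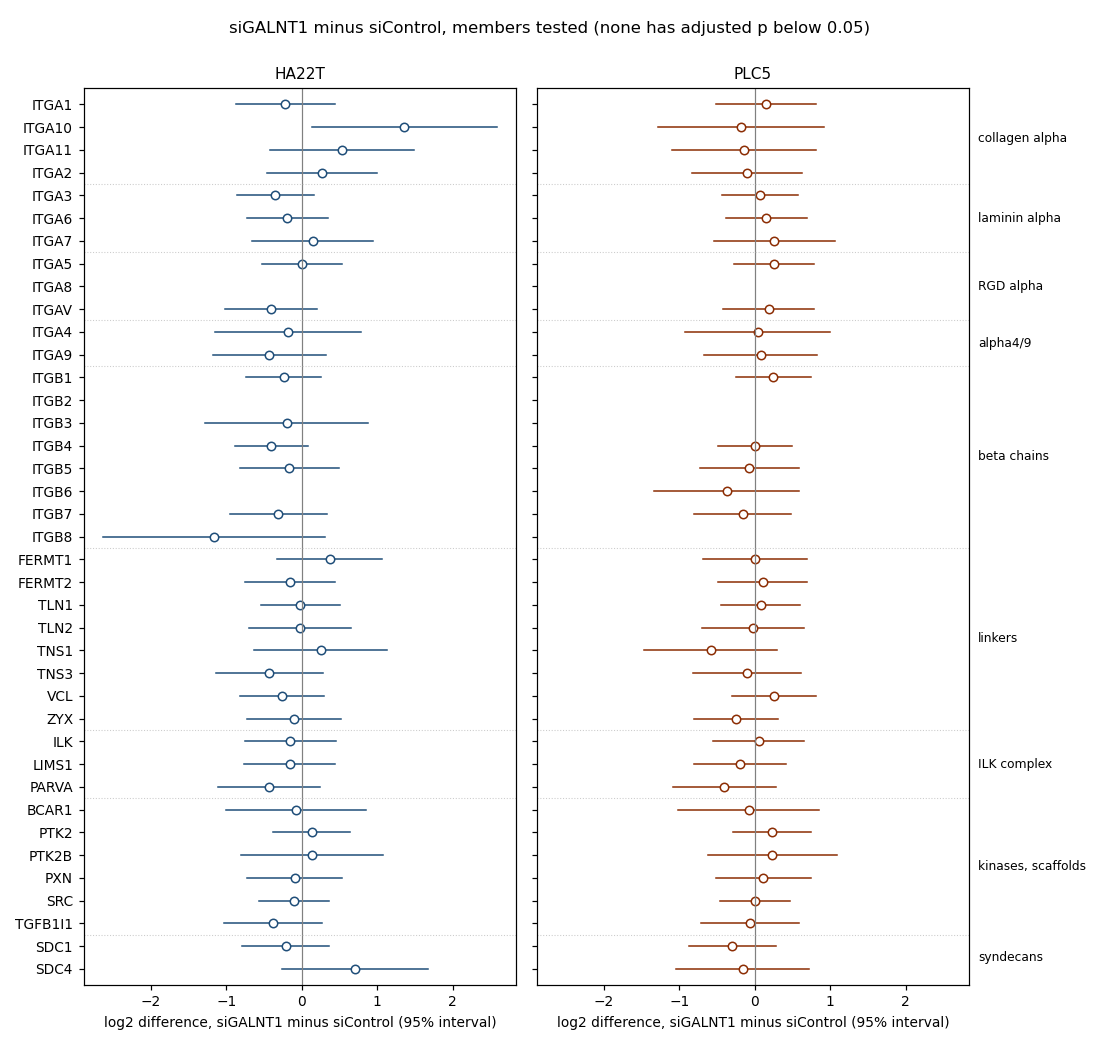
The horizontal axis is the log2 difference siGALNT1 minus siControl with its 95% interval from limma, for members tested in HA22T (left) and in PLC5 (right). No point has an adjusted p below 0.05. In HA22T the interval of ITGA10 alone lies clear of 0, and in PLC5 every interval includes 0.

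A further list of 60 adhesion genes outside the members, also chosen with earlier results known, was read in the same way. Of these, 57 had a usable probe. With siControl, 22 of 54 tested differed between the lines, 4 higher and 18 lower in PLC5, and with siGALNT1 24 of 54 did, 5 higher and 19 lower. All genes stood at 26.6% in both, with 12.4% higher and 14.2% lower with siControl and 15.0% and 11.6% with siGALNT1. The largest differences toward HA22T were those of TRIP6, a zyxin relative above background on 1 of 3 PLC5 arrays in each arm, at -6.68 and -6.86, CAV1, caveolin-1, at -5.03 and -4.82, and LIMS2, which encodes PINCH-2, at -4.16 and -4.19. Toward PLC5 they were those of TSPAN8, a tetraspanin of epithelial cells, at 4.60 with siGALNT1, and, with siControl and siGALNT1 in that order, NEDD9, a relative of p130Cas, at 2.20 and 2.40, and TES, at 1.36 and 2.04. TSPAN8 was above background on 0 of 3 HA22T siControl arrays, and with siControl it was at least 59.0-fold higher in PLC5, a bound that equals the measured difference because the HA22T values, dim as they were, lay above the lowest signal called well above background. By class, 7 of 10 surface partners tested differed in each comparison, as did 14 and 15 of 39 adaptors and linkers and 1 and 2 of 5 other integrin chains, beside the same 26.6%. With siControl TSPAN8 met the filter through PLC5 alone, so it had to differ. It is counted there among the 22 of 54, the 4 higher and the 7 surface partners. After siGALNT1, 0 of 53 passed in either line and 0 met the 1.5-fold criterion.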

How the data were processed

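RNA of 12 samples was hybridized to one-color arrays, 3 per group. The authors read the scanned images with Agilent Feature Extraction 10.5.1.1 (per the submitters' processing notes), and the deposited intensity values are background-subtracted processed signals with spot flags. The authors also deposited log2 values per probe, on which the 75th percentile of each array is close to 0. From the processed signals, array-wise scaling subtracted the log2 75th percentile taken over the 58717 spots that are not controls, non-uniform spots were left out, and spots were averaged over 50599 probes. Probes were named by RefSeq transcript (28174 matched). A gene was read from the brightest probe with a value in every group. The 4 groups were fitted together with limma 3.58.1 in R 4.3.3 without covariates, with Benjamini-Hochberg adjustment over probes well above background on at least 3 of 6 arrays and a threshold of 0.05. The sources name no test for the arrays, so Student's test, called the methods' t-test, was an alternative beside other backgrounds, scalings, filters, blocks and leaving out each array. Exact permutation of 3 against 3 arrays cannot go below 0.1 and was not used. The fit was tested on simulated data. Members and lists were chosen with earlier results of these data known. Values are given for GALNT1, for members past the threshold between the lines or past the 1.5-fold criterion, and for the 3 further adhesion genes with the largest difference in each direction; TNS1, ITGA4 and the members named with values that did not pass were added after their values were seen. In HA22T same-numbered arrays deviated together (correlations 0.53, 0.29 and 0.35 over 29644 probes), which comes from the data and not from the labels. Between the lines with siControl, where samples share only a number, the correlations were 0.26, 0.28 and -0.05. Whether the replicate numbers pair the HA22T samples is therefore not settled, and differences taken by replicate number carry that limit. Background correction with normexp used median signals, the ones in the files. Protein sequences were not used here, and the promoters shown were chosen after the values were seen. The number of arrays limits precision, and replicate arrays correlated at 0.968 to 0.988.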

Additional observations from a re-analysis of the deposited data

How the results depend on the processing

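The counts of members called between the lines, 17 and 13, ran from 12 to 17 with siControl and from 10 to 14 with siGALNT1 when 1 array was left out. In the same runs the calls among all genes ran from 3185 of 16639 to 4757 of 17417 with siControl. With siGALNT1 they ran from 3163 of 16100 to 4573 of 17201. Members higher in PLC5 with siControl numbered 2 to 4 in these runs, the 2 without HA22T siControl replicate 3. In HA22T the members past the 1.5-fold criterion numbered 2 with normexp background correction, 2 with quantile normalization, 0 when every array had to be well above background, and 0 to 2 with 1 array left out. The second member was SDC4 with normexp and without HA22T siControl replicate 2, ITGB8 with quantile normalization, and ITGA11 without HA22T siGALNT1 replicate 2. In PLC5 that count was 0 to 1, with TNS1 passing without PLC5 siGALNT1 replicate 3 (-0.96). With the mean over its probes TNS1 reversed to 2.39 with siControl and to 2.11 with siGALNT1, and with the replicate block to 0.16 with siControl. ITGA10 in PLC5 ran from -0.63 to 0.32 when 1 array was left out, with the sign reversed at 0.01 and 0.32. Of 972 values of called members and TNS1 between the lines, 888 kept their side of the threshold, 68 lost it, 13 gained it and 3 reversed. The 888 include values that were not called and stayed so. They also include runs without an array of the other siRNA, which leave the difference itself unchanged. Through every alternative, 9 of the 17 calls with siControl and 6 of the 13 with siGALNT1 held.

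Scaling over kept spots, chosen after seeing the data, moved the median of all genes with siGALNT1 from -0.07 to -0.29 and that of the members from -0.40 to -0.62, and the share of called genes higher in PLC5 from 56.3% to 41.1%; quantile normalization gave 46.2%. With the replicate block, 20 members were called with siControl, 15 with siGALNT1 and 0 in either siRNA comparison. GALNT1 itself passed in HA22T. The block was shared by the arrays of both lines, although between the lines the samples share only a number. In PLC5 the correlations of same-numbered arrays were 0.59, 0.01 and 0.18. No fit paired HA22T alone by replicate number, so the effect of such a pairing on any member's call was not tested. With trend 18 and 17 members were called, beside 30.6% and 31.9% of all genes. The methods' t-test called 15 and 10 members between the lines, beside 20.8% and 13.3% of all genes, and 0 for siGALNT1.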
